A study of Arabidopsis thaliana with 9 samples.

Results

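In leaves of an Arabidopsis thaliana line labelled as overexpressing a DEK1 calpain, 48 probe sets of the ATH1 array gave lower signals than in both a calpain null line and wild-type leaves. They are 0.21% of the 22810 probe sets of the array. A probe set was taken when its signal on all 3 arrays of the overexpressing line lay below all 6 other arrays, when the means of the calpain null and wild-type leaves were each at least 50, and when each was at least 1.5 times the overexpressing mean. Control probe sets, 4 loci and 10 gene-name prefixes were left out. The prefixes cover expansins, xyloglucan endotransglucosylases, endoglucanases, UDP-glycosyltransferases, cytochromes P450, WRKY and MYB transcription factors, and names starting COR or AUR. By name, these exclusions removed 1 probe set that met the values, AT1G62510. The 23 of the 48 with no gene listed could not be screened by name, so they may include genes of the excluded families. The low signals in the overexpressing line are therefore what chose the 48, and they are described below with no test.

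The study profiled leaves at growth stage 1.14 from 3 genotypes, 3 arrays each. The calpain overexpressing line (32OE) carried a T-DNA insertion labelled as knocking out At1g55350, the DEK1 locus, and a transgene labelled ADEK1 calpain. The calpain null line (32null) carried the same knock-out and a transgene labelled calpain null, and the wild type was Col-0, the background of both lines. Seed was stratified for 3 days, and plants, moved to soil after 7 days, grew 6 to a pot under short days at 21 °C. No promoter is named for the transgenes, the word null is not explained, and nothing says whether replicates were separate plants or pots.

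Calpains are cysteine proteases switched on by calcium. Land plants have a calpain in DEK1. It is a large membrane protein with a cytosolic calpain domain, known for its part in forming and keeping the epidermis and in the growth of leaf cells. The 48 probe sets are tied together by their pattern and not by a pathway, so they are grouped below by what their genes are known to do.

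The annotation lists 1 gene for 25 of the 48 probe sets, which stand for 24 genes because AT2G30600 has 2, and no gene for the other 23. All 48 passed the filter on low signals, since the rule asked for means of at least 50 in both other groups. Among all 14151 probe sets that passed it, 361 (2.55%) had all 3 32OE arrays below the other 6, which is the first condition of the rule. DEK1 had no named probe set, and the targeted transcript was not analysed here. Arrays differed in ways the groups do not explain. On the first principal component, which held 40% of the variance, the arrays numbered 1 of 32OE and 32null scored -9.37 and -9.62. The others of those lines scored 14.7 to 34.5, and the wild-type arrays numbered 1, 2 and 3 scored -33.2, -19.2 and -20.7. The array numbered 1 was therefore the lowest in all 3 groups, and the cause was not tested. Of 10 leaf photosynthesis markers, 2 had a named probe set. RCA, the Rubisco activase, had mean signals of 4926 in 32OE, 5618 in 32null and 5277 in wild-type leaves. PORB had 3654, 3925 and 3331, so its 32OE mean was above the wild-type mean. The root hair marker EXPA7 stayed below the filter signal of 17.6 in all 3 groups, at 3.59, 7.13 and 8.04. For PYK10, a root beta-glucosidase, the 32OE arrays gave 9.96, 20.8 and 112.2, against 15.97, 22.8 and 63.9 on the 32null arrays and 43.3, 15.2 and 19.4 on the wild-type arrays, so that the array numbered 3 was the highest in each transgenic line. Of 8 epidermis markers, ACR4, a receptor kinase of epidermal cells, was the 1 with a named probe set. It had mean signals of 30.5 in 32OE, 39.6 in 32null and 38.2 in wild-type leaves. The trichome gene TRY, the 1 of 4 trichome markers with a named probe set, had 21.9, 13.4 and 14.1. None of these genes separated 32OE from all 6 other arrays, and their part in the members' levels was not tested. Of 6 stomatal lineage and guard cell markers, 2 had a named probe set, and 1 of them, FAMA, lay below all 6 arrays in 32OE, as given below. No vascular, flower or seed marker had a named probe set. In whole leaves, fewer cells of a type and less transcript per cell cannot be told apart.

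Across the 48, group means ran from 10.5 to 1088 in 32OE, from 50.3 to 1746 in 32null and from 56.7 to 2209 in wild-type leaves. The 32OE mean was at the median 52.8% of the wild-type mean and 56.9% of the 32null mean. Most members sat close to the limit that chose them: the lower of the 2 other means was at the median 1.67 times the 32OE mean, it reached 2 times for 11 probe sets and 3 times for 3. The gap between the highest 32OE array and the lowest other array had a median of 1.22-fold and went from 1.01-fold to 9.88-fold. At the edge, 256772_at (ratio 1.5004), 262819_at (1.51) and AT1G29660 (1.52) were just inside, and AT5G37010 (1.497), AT5G13400 (1.49) and 246238_at (1.48) just outside.

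**Figure D1:**
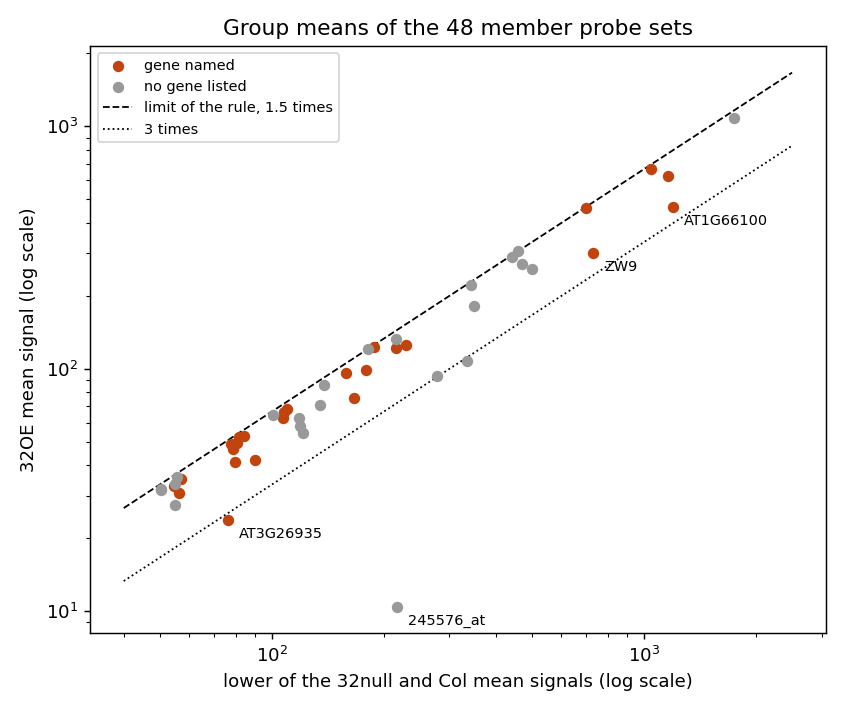
Mean signal in 32OE leaves (vertical, log scale) against the lower of the 32null and Col mean signals (horizontal, log scale) for the 48 member probe sets, each a point. Most points lie just under the dashed 1.5-fold limit of the rule, and 3 lie below the dotted 3-fold line, 245576_at far below it.

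Among the members with signalling or regulatory domains, AT3G26935 encodes a DHHC-type protein S-acyltransferase, an enzyme class that attaches fatty acids to proteins and so ties them to membranes. Its signals were 19.95, 29.7 and 22.1 on the 32OE arrays numbered 1, 2 and 3, against 83.4, 66.9 and 89.4 on the 32null arrays and 75.5, 75.9 and 78.0 on the wild-type arrays. Every 32OE value was less than the lowest other value by 2.25-fold or more, and the null and wild-type ranges overlapped. Its 32OE mean of 23.9 lay not far above the filter signal of 17.6, so the size of the gap rests on low signals. ZW9 (AT1G58270), a TRAF-like protein with a MATH domain, had 308, 299 and 292 in 32OE, 733, 661 and 864 in 32null and 707, 778 and 710.0 in wild-type leaves. Its 32OE arrays were close to each other, with a mean of 299.5 ± 8.25 (SD, n = 3), and its 32null and wild-type means were 753 ± 103 and 731 ± 40.02.

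AT2G30600, a BTB/POZ domain protein, was read by 2 probe sets. BTB domains often join proteins to ubiquitin ligases. The first, 267524_at, had 157, 127 and 92.4 in 32OE, 261, 214 and 213 in 32null and 222, 281 and 301 in wild-type leaves. The second, 267523_at, had 110.5, 131 and 126, against 252, 194 and 199.7 in 32null and 232, 249.8 and 303 in wild-type leaves. Both put the 32OE mean under the other 2 groups, by at least 1.83-fold and 1.76-fold, but they ordered the 32OE arrays differently: the array numbered 1 was the highest by the first and the lowest by the second. They share the RNA of each array and are not independent replicates.

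AT1G22330, an RNA-binding protein with an RNA recognition motif, had 40.6, 28.3 and 23.5 in 32OE, 56.2, 65.4 and 47.0 in 32null and 51.0, 63.3 and 67.8 in wild-type leaves. AT3G52920, of the DUF662 family, had 136, 114 and 120.2 in 32OE, 209, 172 and 182 in 32null and 239.7, 229.5 and 223 in wild-type leaves. For AT3G52920 the 3 groups did not overlap, with the 32null arrays between the other 2 groups.

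**Figure D2:**
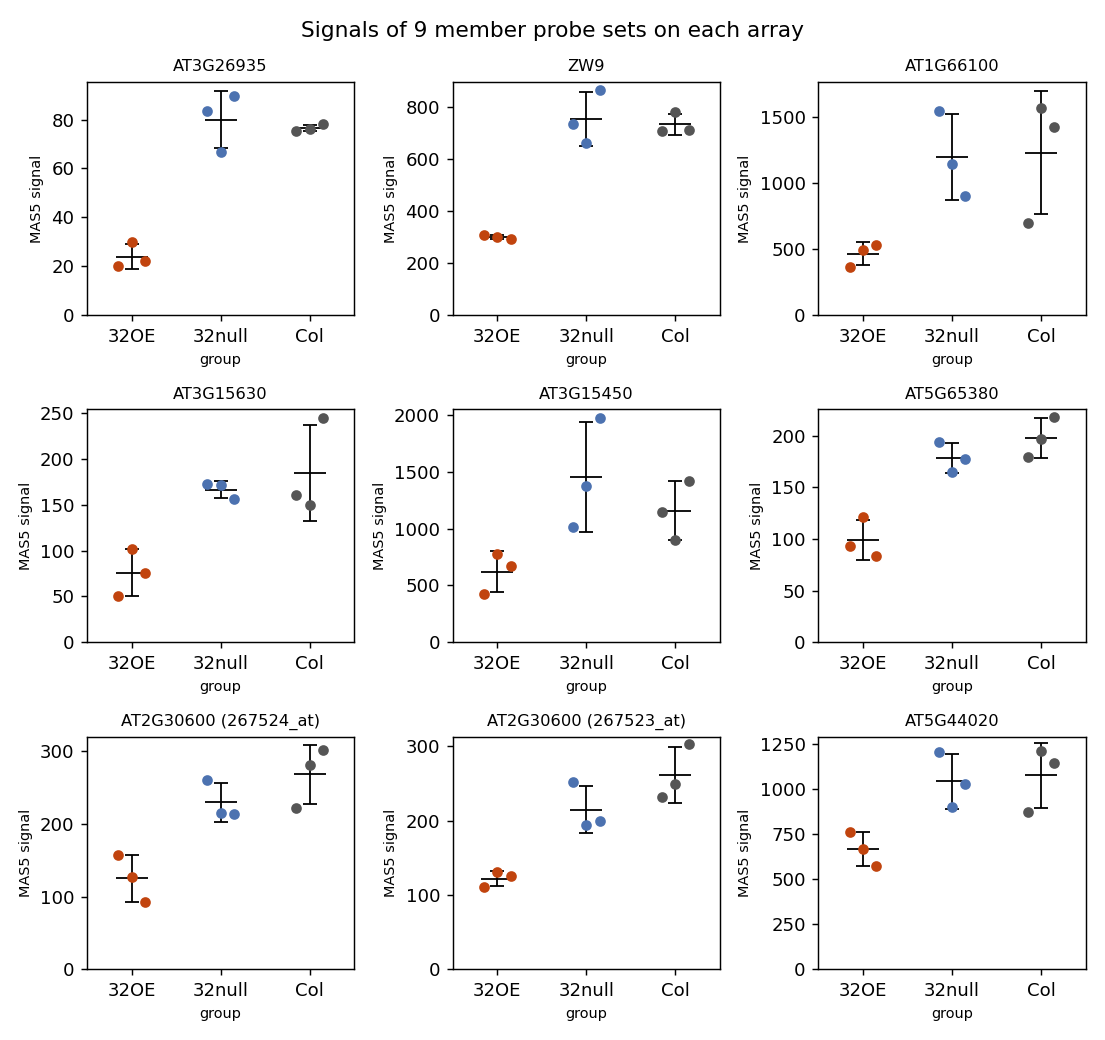
MAS5 signals of 9 member probe sets (vertical, linear from 0) in 32OE, 32null and Col leaves; points are arrays in the order of their numbers, and bars give the mean and SD of 3. AT3G26935 and ZW9 show the widest gaps between the 32OE points and the rest, and the 2 probe sets of AT2G30600 give alike group means.

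Members linked to carbon supply were AT3G15450 and AT3G15630, transcripts known to build up when plants are short of sugar. AT3G15450, a protein with YGL and LRDR motifs, had 423, 774 and 671 in 32OE leaves, against 1019, 1373 and 1972 in 32null and 1149, 904 and 1424 in wild-type leaves. AT3G15630 had 50.04, 101.4 and 75.8 in 32OE, 172, 172 and 156 in 32null and 161, 149.5 and 244 in wild-type leaves. For both, the 32OE array numbered 1 was the lowest and that numbered 2 the highest. Of the 16 carbon starvation genes listed, 4 had a named probe set, all tested. The other 2 were not below the 6 arrays: MCCB, a subunit of methylcrotonyl-CoA carboxylase in leucine breakdown, had means of 176 in 32OE, 178 in 32null and 168 in wild-type leaves, and AKINBETA1, a subunit of the SnRK1 kinase that acts in energy shortage, had 127, 214 and 145. The list was written with AT3G15630 already known to be low in 32OE, so its count is not independent of the rule. Listed genes without a named probe set could not be placed inside or outside the pattern.

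Defence-type proteins among the members were AT1G66100 and JAL34. AT1G66100 encodes a thionin, one of the small cysteine-rich antimicrobial peptides of plants. Its signals were 366, 496 and 532 in 32OE, 1549, 1142 and 902 in 32null and 699.7, 1569 and 1423 in wild-type leaves. The wild-type arrays were spread widely, and the lowest of them, numbered 1, was 1.32 times the highest 32OE array. JAL34 (AT3G16460), a jacalin-related lectin that binds carbohydrates, had 25.9, 33.9 and 38.6 in 32OE, 39.98, 56.9 and 66.4 in 32null and 53.0, 62.9 and 56.6 in wild-type leaves. Its highest 32OE array and its lowest 32null array differed by 1.04-fold. Of 13 thionin and defensin genes listed, 10 had a named probe set and 8 were tested. AT1G66100 was the member, and AT3G05730, a defensin-like gene, also lay below all 6 arrays but by less than the rule asked, with means of 1918 in 32OE, 2775 in 32null and 2239 in wild-type leaves. The thionin THI2.2 had 263, 148 and 214, and the defensin PDF2.2 had 2252, 1882 and 1107, both outside the pattern. AT1G66100 and AT3G05730 had been seen in earlier results when the list was written.

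Transport proteins were AT5G65380 and AT1G22550. AT5G65380 belongs to the MATE efflux family, whose members move organic compounds out of the cytosol. It had 92.8, 121 and 83.3 in 32OE, 194, 165 and 177 in 32null and 179.7, 196 and 219 in wild-type leaves. AT1G22550, of the family of nitrate and peptide transporters, had 37.2, 28.2 and 39.998 in 32OE, 77.5, 51.2 and 65.1 in 32null and 55.0, 47.8 and 68.6 in wild-type leaves. Both had overlapping 32null and wild-type arrays. Of 20 MATE genes listed, 14 had a named probe set and 9 were tested, and AT5G65380 was the 1 below all 6 arrays. AT1G66760, another MATE gene with a low 32OE mean, did not share the pattern, since its 32null mean was low as well: 31.6 in 32OE and 51.5 in 32null, against 118 in wild-type leaves. For DHHC acyltransferases, 17 of 22 listed had a named probe set and 14 were tested; AT3G26935 was again the 1 below all 6 arrays. Among the other 13, 32OE means went from 17.3 for AT3G22180 to 213 for AT4G22750. ZW9 was the sole tested gene of 11 TRAF-like genes listed, of which 4 had a named probe set. Over all tested probe sets, 2.55% lay below the 6 arrays. The MATE, DHHC and TRAF-like lists were written with earlier results of these data known. Each holds a member, so these counts are not taken as independent of the rule.

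Lipid and acyl enzymes were AT2G04570, AT1G29660 and AT5G02890. The first 2 are GDSL-type esterase/lipases, a large family that includes enzymes of cutin and wax metabolism. AT2G04570 had 93.5, 91.2 and 103 in 32OE, 183, 139 and 154 in 32null and 122, 194 and 165 in wild-type leaves. AT1G29660 had 464, 448 and 470.1, against 889, 570.1 and 634 in 32null and 517, 904 and 734 in wild-type leaves. In both genes the 32OE arrays were close together and the wild-type array numbered 1 was the lowest of its group. AT5G02890, of the HXXXD-type acyltransferases, had 61.5, 61.6 and 76.1 in 32OE, 105, 95.8 and 122.7 in 32null and 109, 126 and 133 in wild-type leaves.

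Other enzymes followed. AT5G44020, an acid phosphatase of the HAD superfamily related to vegetative storage proteins, had 759, 669 and 574 in 32OE, 1202, 899 and 1026 in 32null and 872, 1209.7 and 1146 in wild-type leaves. NANA (AT3G12700), an aspartic protease of the chloroplast, had 58.8, 56.2 and 41.9 in 32OE, 93.5, 67.7 and 83.4 in 32null and 71.0, 133 and 94.1 in wild-type leaves. AT3G51660, of the tautomerase family that is related to the animal cytokine MIF, had 80.7, 73.8 and 51.0 in 32OE, 135, 104 and 89.97 in 32null and 145, 114 and 117 in wild-type leaves. In these 3 genes the 32OE array numbered 3 was the lowest, and the array numbered 1 the highest.

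AT3G16660, of the Ole e 1 and extensin family of secreted proteins, had 33.0, 46.9 and 45.9 in 32OE, 118, 173 and 57.7 in 32null and 69.5, 99.9 and 100.4 in wild-type leaves. Its 32null arrays spread 3.0-fold, and the lowest was under every wild-type array. For the remaining 6 named members no role is given here. AT5G62550 had 58.4, 41.4 and 23.9 in 32OE, 75.6, 74.3 and 88.3 in 32null and 136, 103 and 83.9 in wild-type leaves. AT1G78170 had 62.8, 61.2 and 64.0 in 32OE, 122.7, 95.7 and 111 in 32null and 108, 115 and 99.0 in wild-type leaves. The 32OE arrays differed by 2.44-fold for AT5G62550 and by 1.05-fold for AT1G78170. AT3G05900 had means of 46.9 ± 12.2 in 32OE, 78.9 ± 6.66 in 32null and 85.5 ± 5.05 in wild-type leaves (SD, n = 3 each). AT2G41990 had 49.3 ± 9.21 in 32OE, 85.7 ± 27.5 in 32null and 80.5 ± 4.21 in wild-type leaves. The values for AT1G21010 were 48.8 ± 6.18, 77.9 ± 13.0 and 85.4 ± 4.38, and those for AT1G69160 were 53.1 ± 8.75, 84.1 ± 9.47 and 85.2 ± 3.27, in the same order of groups. These 4 had 32OE means between 54.8% and 62.3% of the wild-type mean.

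**Figure D3:**
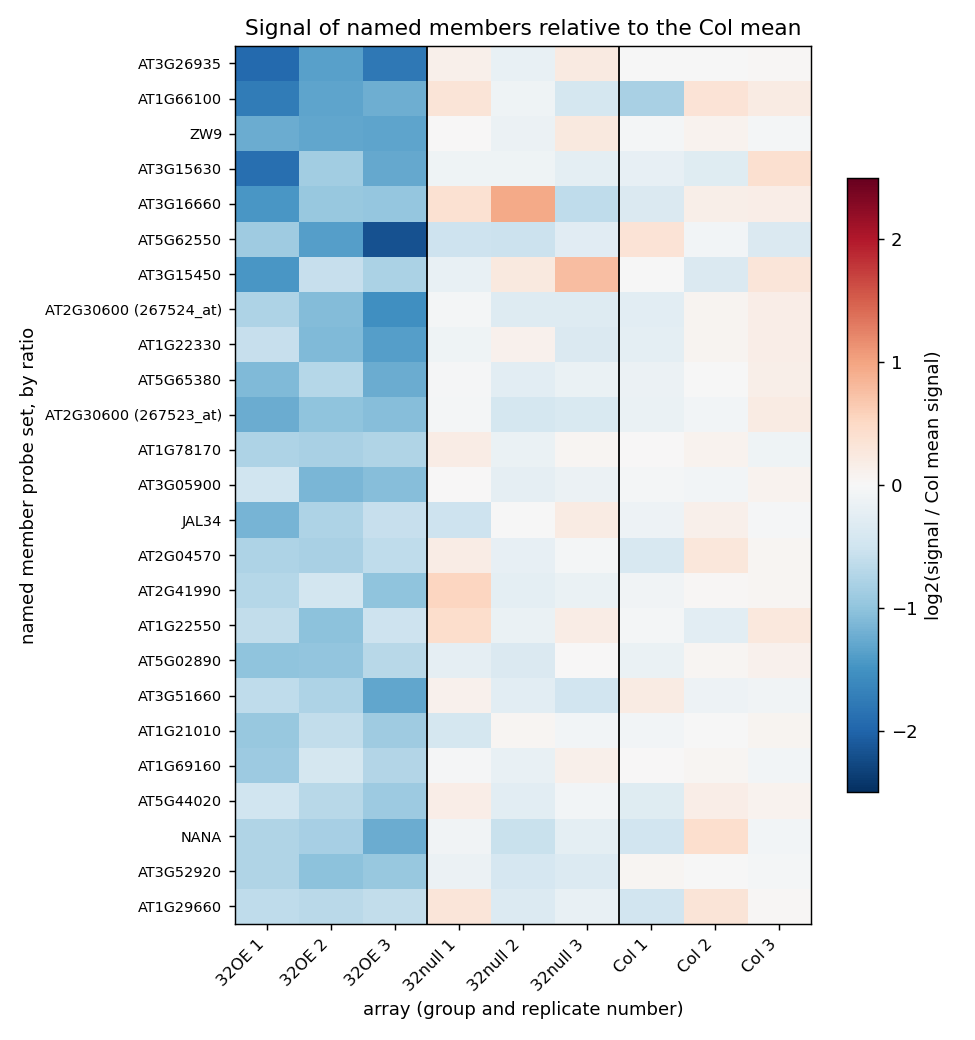
Log2 of each array's signal over the Col mean for the 25 named member probe sets (rows, largest ratio at the top) on the 3 32OE, 3 32null and 3 Col arrays (columns); blue is lower and red higher than the Col mean. The 32OE columns are blue in every row, as the rule requires, and the 32null columns scatter around the Col level.

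Of the 23 probe sets with no gene listed, 245576_at stood apart. Its signals were 2.64, 11.4 and 17.4 in 32OE leaves, against 257, 172 and 222 in 32null and 318, 248 and 221 in wild-type leaves, a ratio of 20.7 between the lower of the other means and the 32OE mean. It was the 1 member whose 32OE mean lay below the filter signal, so the size of its ratio rests on signals near the bottom of the scale. The next was 261979_at, with 161, 77.2 and 85.4 in 32OE, 428, 376 and 198 in 32null and 374, 355 and 461 in wild-type leaves. The 23 had ratios from 1.5 to 20.7 with a median of 1.64, and 6 reached 2 times, while the 25 named probe sets had a median of 1.68 and 5 reached 2 times.

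Within groups, the members' median coefficient of variation was 18.7% in 32OE, 14.7% in 32null and 14.2% in wild-type leaves, against 13.2%, 13.1% and 11.1% over all tested probe sets. The 32OE array numbered 1, which was nearest to wild type on the first principal component, was the highest of its group for 22 of the 48 members, against 39.8% of all tested probe sets, and the lowest for 15. The array numbered 2 was the highest for 17, against 29.3% of all tested probe sets, and that numbered 3 for 9, against 30.8%. In the gene order of the RefSeq table (assembly TAIR10.1), no 2 of the 24 named genes were direct neighbours, and the closest pair, AT1G22330 and AT1G22550, had 19 protein-coding genes between them.

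The number of members depended on the 32OE array numbered 1. When the rule was applied without that array, 169 probe sets met it, 46 of them among the 48, and it gave 58 and 48 without the arrays numbered 2 and 3. The array that was left out can then be read on probe sets chosen without its own signals. The array numbered 1 lay below all 6 other arrays for 62 of the 169 probe sets (36.7%), against 12.2% of all tested probe sets. The array numbered 2 did so for 46 of 58 (79.3%, against 17.2%) and that numbered 3 for 44 of 48 (91.7%, against 19.5%). The 32null and wild-type arrays were the same in the choice and in this reading, so these shares are a description. The array numbered 1 also stood apart from the other 2 on the first principal component, and the part of that in its lower share was not tested.

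**Figure D4:**
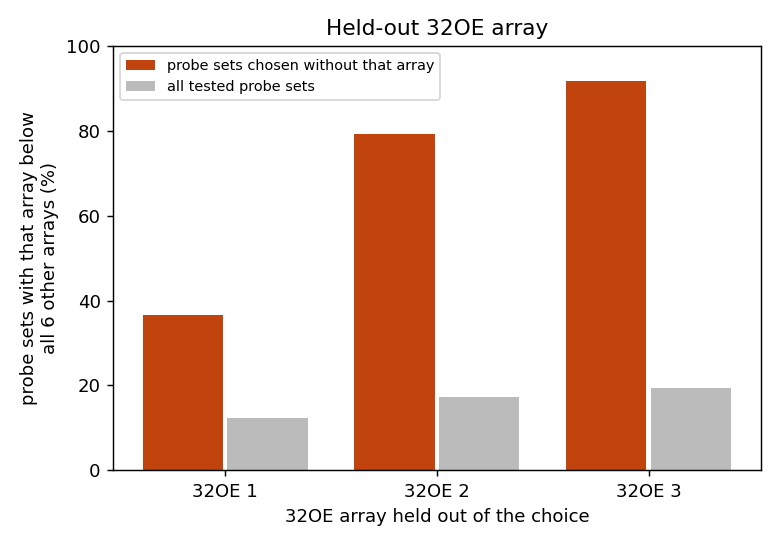
Share of probe sets (%) in which the 32OE array left out of the choice lay below all 6 other arrays, for probe sets chosen without it and for all 14151 tested probe sets. The share was 36.7% for the array numbered 1, 79.3% for that numbered 2 and 91.7% for that numbered 3, against 12.2% to 19.5% of all tested probe sets. The 6 other arrays entered both the choice and the reading, which raises the shares of the chosen probe sets.

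Calpain null minus wild type is the contrast whose direction the rule did not use, although the rule kept out probe sets very low in either group. It asks whether the members differ between the line with the same knock-out and wild type. None of the 48 was called by limma at an adjusted p under 0.05, against 8 of 14151 tested probe sets (0.0565%), a background at which a count of 0 is no result about the members. The smallest adjusted p among members was 0.115. At an unadjusted p under 0.05 there were 6 of 48 members (12.5%) and 2469 of all tested probe sets (17.4%). With single arrays left out, 0 or 1 member was called, while the count over all probe sets became 1 without the wild-type array numbered 3, 3 without 32null array 3, 227 without 32null array 1, 490 without 32OE array 1 and 27 without 32OE array 2. Members called were 1 with array weights and 2 with the replicate number as a block, against 619 and 461 of all tested probe sets. Without the arrays numbered 1 of all groups, left out after seeing the data, 3 members and 1110 of all tested probe sets were called. A missed threshold does not show that the levels were equal.

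On the log2(signal + 3.63) scale, 46 of 48 members (95.8%) differed by less than 0.5 between 32null and wild-type leaves, against 89.6% of all tested probe sets and 92.7% of the 9397 whose means in both groups reached 50. The rule asked for a high mean in both groups, and the shares lie close together, so nothing is read from the members' share. Their median difference was -0.11, where the median over all tested probe sets was 0.013. The 32null mean was below the wild-type mean for 35 members and above it for 13, while 47.3% of all tested probe sets had the lower mean in 32null. All 3 32null arrays lay below the wild-type arrays for 5 members, against 11.5% of tested probe sets, and above them for 3, against 13% of tested probe sets. Among the named genes AT3G52920 had the smallest p, with a log2 difference of -0.30 (SE 0.12, adjusted p = 0.226 by limma, and 0.0799 to 0.502 over the alternatives). AT2G30600 had -0.28 by 267523_at (SE 0.14, adjusted p = 0.329, and 0.0451 to 0.625 over the alternatives) and -0.22 by 267524_at (SE 0.18, adjusted p = 0.563). AT5G62550 had -0.40 (SE 0.26, adjusted p = 0.445), AT5G02890 -0.18 (SE 0.14, adjusted p = 0.522) and AT3G15450 0.30 (SE 0.26, adjusted p = 0.575). Single arrays moved these sizes while the direction stayed: AT3G15450 had 0.05 without the 32null array numbered 3, 0.13 without wild-type array 2, 0.46 without wild-type array 3 and 0.53 without 32null array 1. AT5G62550 had -0.22 without the wild-type array numbered 1, and AT5G02890 had -0.11 without 32null array 2 and -0.28 without 32null array 3. By 267524_at, AT2G30600 had -0.13 without the wild-type array numbered 3 and -0.34 without wild-type array 1. ZW9 had 0.03 (SE 0.11), AT3G26935 0.05 (SE 0.16) and the thionin AT1G66100 0.01 (SE 0.28).

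Only 2 members, both with no gene listed and chosen here after their values were seen, were over 0.5 higher in 32null leaves. The probe set 267461_at had 22.1, 78.5 and 74.5 in 32OE, 160.3, 434 and 661 in 32null and 146, 89.99 and 122 in wild-type leaves, and a log2 difference between 32null and wild type of 1.59 (SE 0.50, adjusted p = 0.157, and 0.000634 to 0.463 over the alternatives). The 32null array numbered 1 was the nearest to wild type. The probe set 259925_at had 58.4, 66.8 and 62.4 in 32OE, 224, 235 and 187 in 32null and 82.9, 178 and 93.3 in wild-type leaves, and a log2 difference of 0.92 (SE 0.23, adjusted p = 0.115, and 0.0249 to 0.316 over the alternatives). Its 32null arrays were all above its wild-type arrays, of which that numbered 2 was the highest.

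**Figure D5:**
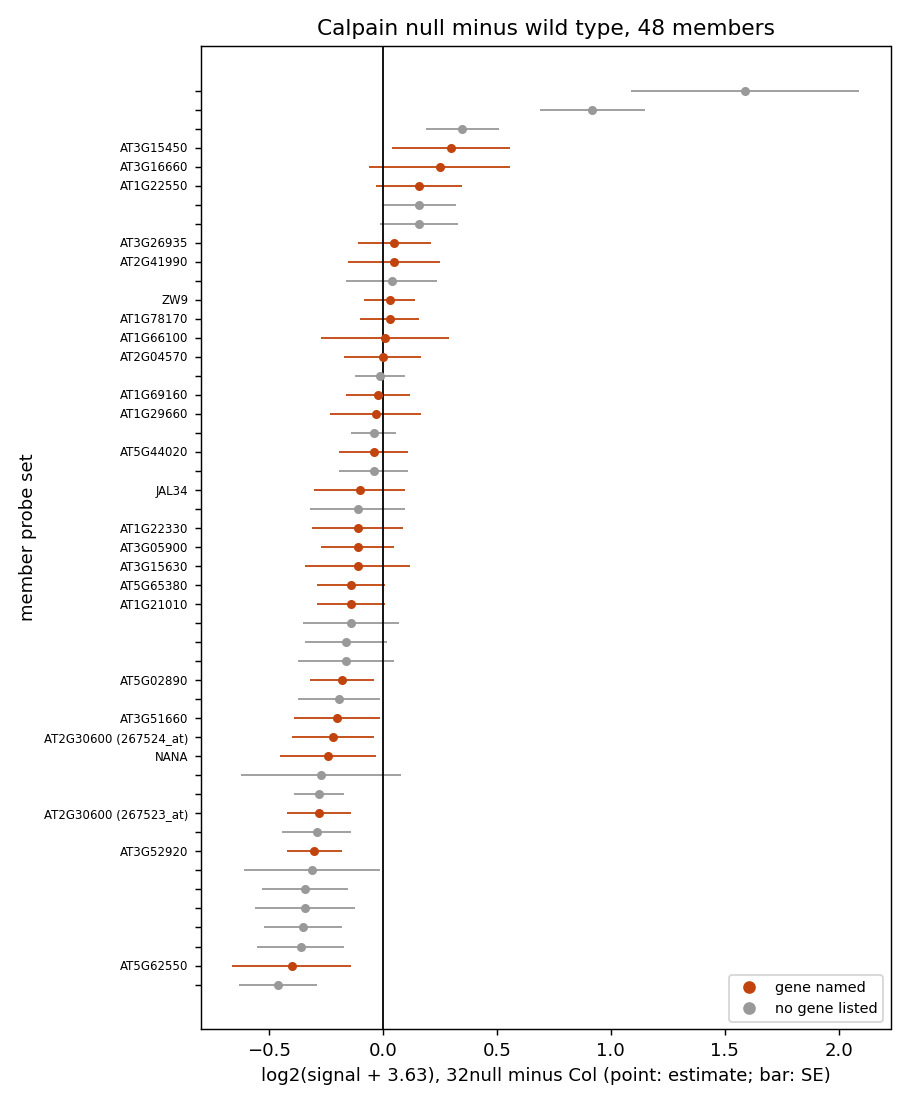
Difference between 32null and Col leaves on the log2(signal + 3.63) scale for each of the 48 members, points being estimates and bars standard errors from limma. All but 2 members lie within 0.5 of 0, and both exceptions, with no gene listed, are higher in 32null.

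The other lists gave little to set beside the members, because few of their genes had a named probe set. A listed gene may be read by a probe set with no gene listed, so the counts cover named probe sets alone. Of the 15 jasmonate genes, JOX2 and JOX3, which oxidise jasmonic acid, were the ones with a named probe set. JOX2 had means of 13.2 in 32OE, 26.2 in 32null and 84.9 in wild-type leaves, so that, unlike a member, it had a low mean in 32null too. Of 10 salicylic acid genes and 14 clock genes, SAG101 and GI were the ones with a named probe set. Neither lay below or above all 6 arrays in 32OE. Of 6 stomatal lineage and guard cell markers, 2 had a named probe set, and both were tested. FAMA, which drives guard cell formation, lay below all 6 arrays, with means of 43.4 in 32OE, 57.9 in 32null and 59.4 in wild-type leaves. SPCH did not, with 128, 102 and 136. The part of a change in stomatal cells in the members' levels was not tested. No listed gene that was tested was called between 32null and wild-type leaves. Over all tested probe sets 8 of 14151 (0.0565%) were called, so this is no result about the listed genes.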

How the data were processed

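The table holds 9 Affymetrix ATH1 arrays, 3 a group, with groups and replicate numbers taken from the sample titles. The deposited values are intensities from MAS5 in GCOS, per the submitters' processing notes, with 1 linear signal a probe set; the values bear out a common scaling, with a mean after trimming 2% at each end of 100.01 on every array. Changes are therefore relative to the rest of the array. The number of arrays limits the precision, and the spread behind each p-value may be technical.

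The members and gene lists were chosen with earlier results of these data known. The selection was applied to the deposited signals as they stand. Genes came from the platform annotation (13513 probe sets with 1 gene, 503 with several, 8794 unlisted) and were matched by gene ID to RefSeq (TAIR10.1). Where a listed gene had several probe sets, the one with the highest mean signal was used. Listed genes read only by probe sets with no gene listed could not be counted. Gene descriptions and promoter or protein sequences were not used here, so the planned keyword classes and motif searches were not run, and gene roles are textbook background. Named members were those with a single gene, plus the 2 unlisted probe sets with the largest ratio.

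For calpain null minus wild type, log2(signal + 3.63), with the table's 20th percentile as pseudocount, was fitted with limma 3.58.1 in R 4.3.3 on all 9 arrays with an intensity trend. A probe set was tested if it reached 17.6, the 40th percentile, on 3 or more arrays, and the 64 control probe sets did not enter. Tests were two-sided with Benjamini-Hochberg adjustment over 14151 probe sets. On simulated data the fit recovered 76 of 100 2-fold and 99 of 100 4-fold changes, with 6 false calls. The simulated noise was independent between arrays and probe sets, so it does not cover shifts shared across an array. No 2 arrays held identical values. Figures were drawn with matplotlib 3.10.9.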

Additional observations from a re-analysis of the deposited data

How the results depend on the processing

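The 48 probe sets became 46 after quantile normalization, all among the 48, and 48 after median scaling, with 44 shared. A floor of 25 gave 76 and a floor of 100 gave 32, requiring means of at least 125% of the 32OE mean gave 137 and of at least 2 times that mean 11, and leaving out probe sets that may cross-hybridise gave 47. Leaving out each array in turn gave 46 to 169, the highest without the 32OE array numbered 1, and leaving out the arrays numbered 1 of all groups, chosen after seeing the data, gave 153, with 42 shared.

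Between 32null and wild-type leaves, the count of members called stayed at 0 with pseudocounts of 1 and 16, no filter, quantile normalization, median centring, no trend and a fit of these 2 groups alone. It was 1 with array weights, 3 without the arrays numbered 1 of all groups, and 0 to 1 with each array left out in turn. The count over all probe sets, 8, was 619 with array weights, 272 in the fit of 2 groups, 1110 without the arrays numbered 1 of all groups, and 1 to 490 with each array left out in turn: 1 without the wild-type array numbered 3, 3 without 32null array 3, 227 without 32null array 1, 490 without 32OE array 1 and 27 without 32OE array 2. With the replicate number as a block it was 461, and 2 members were called, 259925_at (adjusted p = 0.0289 by limma) and 267461_at (0.0481). The arrays numbered 1, 2 and 3 deviated from their group means with correlations of 0.371, 0.064 and 0.093 between 32OE and 32null, 0.324, 0.096 and 0.171 between 32OE and wild type, and -0.007, -0.104 and -0.128 between 32null and wild type. No set of 3 was above 0.1 throughout. Between 32null and wild type, no array correlated best with its own number in the other group. The numbers were therefore not taken to pair arrays. With 32OE the numbers matched in part: the arrays numbered 1 of 32OE and 32null, and those of 32OE and wild type, correlated best with each other. So did the arrays numbered 3 of 32OE and wild type. The cause of these shifts was not tested. The members' median difference stayed between -0.23 and -0.07 on the log2 scale. Under quantile normalization, the held-out 32OE arrays numbered 1, 2 and 3 lay below all 6 others for 62 of 167, 48 of 62 and 41 of 44 probe sets chosen without them. The smallest difference that 3 arrays a group can show was not determined.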
